A study of Mus musculus with 15 samples.

Results

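The genes Icam1, Icam2, Vcam1, F11r, Jam2 and Jam3 encode surface ligands for leukocyte integrins, and their transcripts were followed through 5 sorted mouse cell populations. The members were taken by gene symbol, with no threshold on their values, and all 6 were present among the 10222 gene symbols of the deposited expression table. Each member was represented by a single transcript in the table.

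RNA-seq was performed on 15 libraries, 3 from each population. All cells were sorted ex vivo, without treatment, from heterozygous C57BL/6 IL33-citrine reporter mice, in which a fluorescent protein reports transcription of Il33, so that every population carries the same reporter allele. The age of the mice, any pooling of animals and the surface gate of the lung MSC are not given in the sources used here. From mesenteric white adipose tissue (WAT), mesenchymal stromal cells (WAT-MSC) were sorted as negative for CD45, EpCAM, CD31 and CD24 and positive for PDGFRα, CD34, Sca1 and podoplanin, and were then divided into citrine-positive (Il33+ WAT-MSC) and citrine-negative (Il33- WAT-MSC) cells. Il33+ MSC were also sorted from lung, EpCAM+ epithelial cells were sorted from lung, and CD31+ endothelial cells were sorted from WAT. The lung and WAT stromal cells therefore differed in organ, whereas the endothelial and epithelial populations each came from a single organ. Cell type and organ cannot be told apart in a comparison of these 2 populations. The same holds for WAT-MSC against epithelial cells and for lung Il33+ MSC against endothelial cells. Replicates came from independent experiments.

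ICAM-1 and ICAM-2 are immunoglobulin-superfamily proteins that bind LFA-1, the integrin through which lymphocytes and innate lymphoid cells attach to other cells. ICAM-1 also binds Mac-1 on myeloid cells. VCAM-1 is the ligand of VLA-4 and holds eosinophils, lymphocytes and progenitor cells on endothelium and on stroma. The junctional adhesion molecules JAM-A (encoded by F11r), JAM-B (Jam2) and JAM-C (Jam3) sit at contacts between cells and serve leukocytes during transmigration: JAM-A can bind LFA-1, JAM-B can bind VLA-4 and JAM-C, and JAM-C can bind Mac-1. Inflammatory cytokines are known to raise Icam1 and Vcam1, acting largely through NF-κB, whereas Icam2 is known as a constitutive endothelial gene and F11r as a gene of epithelial and endothelial junctions.

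The genes lie apart in the genome. In the GRCm38 mouse assembly (mm10), Icam1 occupies chr9:21015940-21028814 and Jam3 lies on the same chromosome at chr9:27097384-27155421. Icam2 is at chr11:106377656-106388139, Vcam1 at chr3:116110020-116129688, F11r at chr1:171437561-171464593 and Jam2 at chr16:84774123-84826380, and all 6 are annotated as protein coding.

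The 250 bases upstream of the RefSeq start are shown for Icam1 and F11r, respectively the member with the highest mean level in WAT-MSC and the member called between the 2 WAT-MSC populations. These windows are chr9:21015690-21015939 and chr1:171437311-171437560, both on the plus strand of GRCm38.p6. Capitals mark GGAAATTCC (an NF-κB-type element) and TTCNNNGAA (a STAT-type element) in Icam1, and CCAAT or its reverse complement ATTGG in F11r.
Icam1: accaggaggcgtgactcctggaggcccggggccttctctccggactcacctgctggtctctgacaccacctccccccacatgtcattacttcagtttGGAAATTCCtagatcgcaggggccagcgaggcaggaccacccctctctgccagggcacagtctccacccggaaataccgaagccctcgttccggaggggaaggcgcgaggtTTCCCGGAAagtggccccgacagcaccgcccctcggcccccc
F11r: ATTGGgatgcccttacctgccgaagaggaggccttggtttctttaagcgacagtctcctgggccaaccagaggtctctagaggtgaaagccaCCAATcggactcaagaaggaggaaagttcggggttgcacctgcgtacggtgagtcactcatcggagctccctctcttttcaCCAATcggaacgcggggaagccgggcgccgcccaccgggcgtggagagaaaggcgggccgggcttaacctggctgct
The GGAAATTCC of Icam1 stood at positions -153 to -145 from the start, and on either strand these letters were found in 0.289% of 32536 promoter windows of this length. The TTCNNNGAA match, TTCCCGGAA, stood at -42 to -34, and 7.04% of the windows held such a match. CCAAT was found in F11r at -158 to -154 and at -77 to -73 and ATTGG at -250 to -246, and 33.8% of the windows held CCAAT on either strand. The motifs do not overlap each other, were chosen with the sequences in view and describe letters only.

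Expression was given as RPKM, a read count scaled to the length of the transcript in kilobases and to the number of mapped reads of the library. Between 42711843 and 60773158 alignments were reported per library. Within a population, the libraries correlated at 0.773 to 0.962 across genes. The lowest values were among the endothelial libraries, where replicate 1 stood apart with 10.9% of transcripts listed at 0, so the called endothelial differences of the members are given with and without it. A stromal list of 10 genes summed to between 5949 and 7967 RPKM in Il33+ WAT-MSC, between 4629 and 6361 RPKM in Il33- WAT-MSC and between 7342 and 9746 RPKM in lung Il33+ MSC, but also reached between 2068 and 4375 RPKM in the sorted endothelial cells. A list of 10 endothelial genes, led by Cdh5 and Pecam1, summed to between 672 and 810 RPKM in the endothelial libraries and to at most 106 RPKM in any other library. Pericyte and smooth muscle genes (10 of 10 listed) were also highest in the endothelial libraries, at 228 to 296 RPKM, against at most 54.8 RPKM elsewhere. Lung epithelial genes were at 162144 RPKM or more in the epithelial libraries, in which Scgb1a1 alone took 57.7 to 62.9% of all RPKM. In such bulk samples, fewer cells of a type and less RNA per cell cannot be told apart.

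Differences between populations were tested with limma on log2(RPKM + 1), with all 15 libraries in a single fit and p-values adjusted by Benjamini-Hochberg over the 9981 genes that reached 1 RPKM in at least 3 libraries. The members all passed this filter, and a difference was called at an adjusted p below 0.05. Differences are given on the log2 scale as the first population minus the second, with the standard error. With 6 members and 10 pairs of populations there were 60 differences, of which 34 were called. Of all genes, between 1.13% and 38.1% were called, depending on the comparison.

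**Figure D1:**
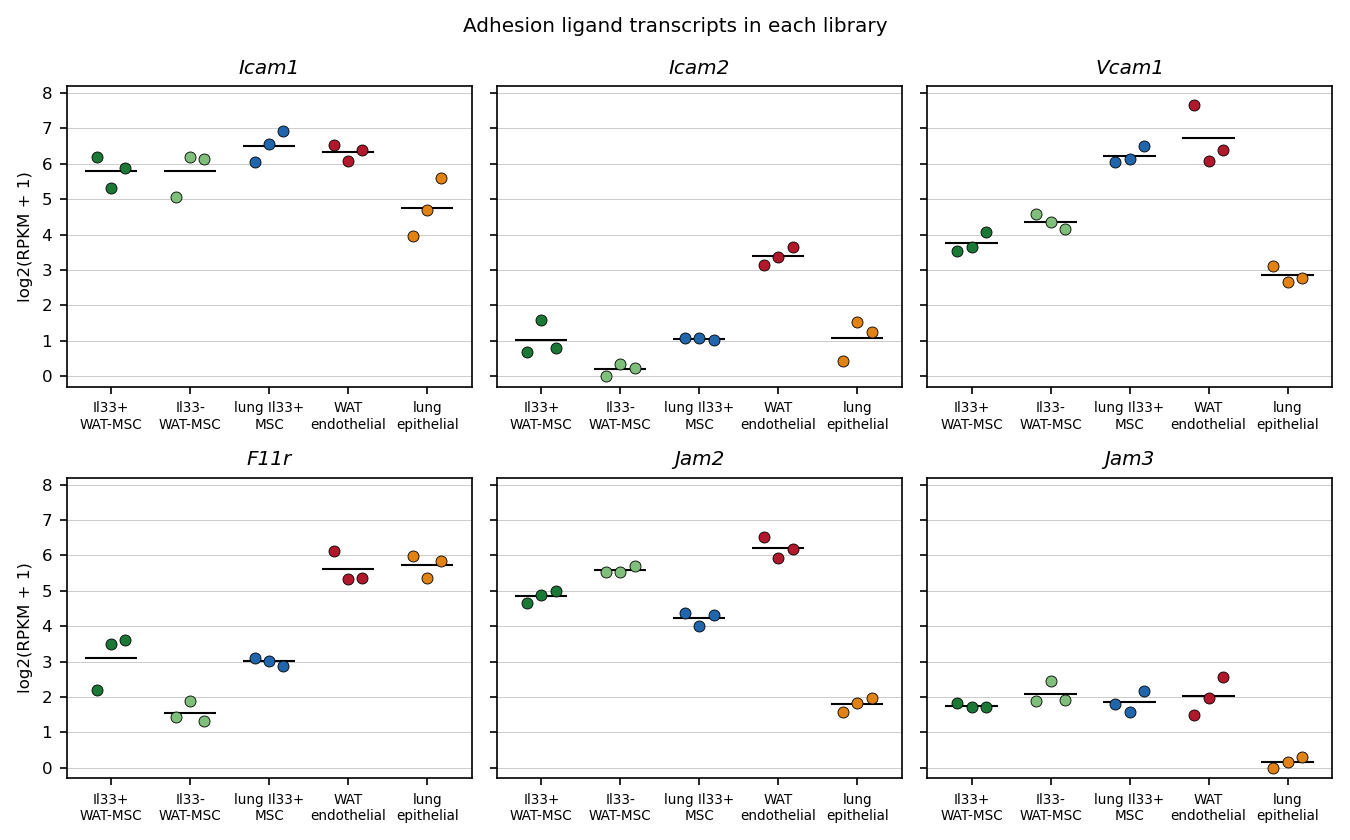
Level of each member as log2(RPKM + 1) on the y axis in the 5 populations on the x axis. Points are libraries (replicates 1 to 3 from left to right) and lines are means of 3 libraries. Icam1 is above 14 RPKM in every library, whereas Icam2 and Jam3 stay low in most of them.

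Icam1 was abundant in all the stromal and endothelial libraries. Its level in Il33+ WAT-MSC was 72.9, 38.7 and 58.4 RPKM in replicates 1 to 3, a mean of 56.6 ± 17.2 RPKM (SD, n = 3). In Il33- WAT-MSC it was 32.2, 72.2 and 69.4 RPKM, so that the libraries of the 2 WAT-MSC populations interleaved. Lung Il33+ MSC had 65.2, 92.9 and 122 RPKM. Endothelial cells had 91.6, 66.8 and 83.1 RPKM, and lung epithelial cells had the lowest mean but the widest relative spread, with 14.6, 24.8 and 47.8 RPKM.

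The order of the Icam1 means was lung Il33+ MSC (93.3 RPKM), endothelial cells (80.5 RPKM), Il33- WAT-MSC (57.9 RPKM), Il33+ WAT-MSC (56.6 RPKM) and epithelial cells (29.0 RPKM). No step between neighbours in this order was called, the largest being the last. Icam1 was called higher in lung Il33+ MSC than in epithelial cells (difference 1.76 ± 0.41, limma adjusted p = 0.00276). The endothelial libraries were also higher than the epithelial ones (difference 1.58 ± 0.41, limma adjusted p = 0.00604), and without endothelial replicate 1 that difference was 1.49 (limma adjusted p = 0.0178). The corresponding differences of Il33+ WAT-MSC (1.05, limma adjusted p = 0.055) and Il33- WAT-MSC (1.04, limma adjusted p = 0.0552) from epithelial cells lay just outside the threshold, and each had 1 epithelial library inside the range of the stromal ones. Without epithelial replicate 3, the library at 47.8 RPKM, both were called (adjusted p of 0.00952 and 0.00958 by limma). They were also called without Il33+ WAT-MSC replicate 2 (limma adjusted p = 0.0384) and without Il33- WAT-MSC replicate 1 (limma adjusted p = 0.015), respectively the lowest library of each. The replicate block (limma adjusted p = 0.0313 and 0.0317), lane as a covariate (0.0154 and 0.0155), a filter at 5 RPKM (0.046 and 0.0467) and array weights (0.0136 and 0.0052) made both called as well. Of 16 alternatives, 6 called each and the rest did not. In the latter, the differences from epithelial cells fell as low as 0.54 in Il33+ and 0.65 in Il33- WAT-MSC (highest limma adjusted p = 0.261 for each). Between Il33+ and Il33- WAT-MSC the difference was 0.01, with a 95% interval of -0.86 to 0.87, which leaves room for a change in either direction.

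Vcam1 separated the lung stromal cells from the WAT stromal cells. It was at 65.5, 68.7 and 89.3 RPKM in lung Il33+ MSC, a mean of 74.5 ± 12.9 RPKM (SD, n = 3). Il33+ WAT-MSC had 10.6, 11.6 and 15.9 RPKM. Il33- WAT-MSC had 22.7, 19.6 and 17.0 RPKM, and all 3 lung libraries lay above all 6 WAT-MSC libraries. The difference of Il33+ WAT-MSC from lung Il33+ MSC was -2.47 ± 0.33 (limma adjusted p = 0.000488). That of Il33- WAT-MSC from lung Il33+ MSC was -1.86 ± 0.33 (limma adjusted p = 0.00226). Both calls were kept under every alternative setting.

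Among all populations Vcam1 had its highest mean in endothelial cells, at 118 ± 74.2 RPKM (SD, n = 3). The spread came from replicate 1, at 203 RPKM, against 67.2 and 83.5 RPKM in replicates 2 and 3. The mean of these last 2 libraries was 75.3 ± 11.5 RPKM (SD, n = 2), beside the 74.5 RPKM of lung Il33+ MSC. The difference of lung Il33+ MSC from endothelial cells was -0.50 with a 95% interval of -1.21 to 0.21, and it was -0.02 (limma adjusted p = 0.988) without endothelial replicate 1. Compared with endothelial cells, Vcam1 was called lower in Il33+ WAT-MSC (difference -2.96 ± 0.33, limma adjusted p = 2.79e-05) and in Il33- WAT-MSC (difference -2.35 ± 0.33, limma adjusted p = 0.000196). Without endothelial replicate 1 these differences were -2.49 and -1.88, and both were still called.

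Lung epithelial cells had the least Vcam1, at 7.68, 5.32 and 5.85 RPKM. It was called lower there than in endothelial cells (difference of endothelial from epithelial cells 3.87 ± 0.33, limma adjusted p = 1.76e-07) and than in lung Il33+ MSC (difference 3.37 ± 0.33, limma adjusted p = 7.33e-07). Without endothelial replicate 1 the former was 3.39 (limma adjusted p = 4.71e-08). For Il33- WAT-MSC the difference from epithelial cells was 1.52 ± 0.33 (limma adjusted p = 0.00183), which median-ratio scaling of the libraries took to 1.16 (limma adjusted p = 0.0532). For Il33+ WAT-MSC it was 0.91 ± 0.33 (limma adjusted p = 0.0446). The latter call was lost in 9 of 16 alternative settings, including the removal of any of the 6 libraries compared. Between the 2 WAT-MSC populations, the Il33- libraries were all higher (difference of Il33+ from Il33- -0.61, 95% interval -1.32 to 0.10), but the difference was not called (limma adjusted p = 0.714).

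The ratio of Icam1 to Vcam1 within a library, which does not depend on the scaling between libraries, was 4.62 ± 1.95 in Il33+ WAT-MSC and 3.06 ± 1.44 in Il33- WAT-MSC (SD, n = 3 each). It was 1.24 ± 0.21 in lung Il33+ MSC and 0.81 ± 0.31 in endothelial cells (SD, n = 3 each). Epithelial cells, in which both transcripts were lower, had a ratio of 4.91 ± 3.14 (SD, n = 3). Endothelial replicate 1 had a ratio of 0.45, and without it the endothelial ratio was 0.99 ± 0.0010 (SD, n = 2).

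Icam2 was an endothelial transcript in these data. Endothelial cells had 7.89, 9.31 and 11.6 RPKM, a mean of 9.58 ± 1.85 RPKM (SD, n = 3), and no other library exceeded 2.01 RPKM. Il33+ WAT-MSC had 0.61, 2.01 and 0.73 RPKM. Il33- WAT-MSC were at the floor, with 1 library listed at 0 and the others at 0.26 and 0.18 RPKM. Lung Il33+ MSC had 1.12, 1.12 and 1.03 RPKM, and epithelial cells had 0.36, 1.88 and 1.37 RPKM. Icam2 was called lower than in endothelial cells in Il33+ WAT-MSC (difference -2.37 ± 0.33, limma adjusted p = 0.000216), in Il33- WAT-MSC (-3.20 ± 0.33, limma adjusted p = 9.77e-06) and in lung Il33+ MSC (-2.33 ± 0.33, limma adjusted p = 0.000181). Its difference of endothelial from epithelial cells was 2.32 ± 0.33 (limma adjusted p = 3.6e-05). All 4 of these calls were kept under every alternative setting, including the removal of endothelial replicate 1, which gave -2.49, -3.32, -2.44 and 2.44 in this order.

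Below the endothelial level, the order of the Icam2 means was epithelial cells (1.20 RPKM), Il33+ WAT-MSC (1.12 RPKM), lung Il33+ MSC (1.09 RPKM) and Il33- WAT-MSC (0.15 RPKM), and no step between neighbours in it was called by limma. Between Il33- WAT-MSC and epithelial cells a difference of -0.88 was called (limma adjusted p = 0.0447), but 6 of 15 alternatives ended that call, including the removal of any Il33- WAT-MSC library or of epithelial replicate 2 or 3. Differences at this level are small beside the pseudocount of 1, which compresses them. In the wider endothelial list the summed level was 21.5 to 40.4 RPKM in Il33+ WAT-MSC and 13.96 to 29.7 RPKM in Il33- WAT-MSC. Its part in the remaining Icam2 of the stromal libraries was not tested.

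F11r was shared by epithelial and endothelial cells. Epithelial libraries had 61.6, 39.9 and 56.4 RPKM, a mean of 52.6 ± 11.3 RPKM (SD, n = 3). Endothelial libraries had 68.7, 39.4 and 40.1 RPKM, a mean of 49.4 ± 16.7 RPKM (SD, n = 3). The ranges of the 2 populations overlapped and their difference was -0.12, with a 95% interval of -0.87 to 0.64. Without endothelial replicate 1 the endothelial mean was 39.8 ± 0.54 RPKM (SD, n = 2) and the difference was -0.37 (limma adjusted p = 0.463). Lung Il33+ MSC had 7.55, 7.16 and 6.39 RPKM. Il33+ WAT-MSC had 3.57, 10.4 and 11.2 RPKM, and Il33- WAT-MSC had the least, with 1.68, 2.71 and 1.49 RPKM.

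All 6 differences of F11r between a stromal population and the endothelial or epithelial cells were called and were kept under every alternative. The smallest was that of Il33+ WAT-MSC from endothelial cells (-2.51 ± 0.35, limma adjusted p = 0.000267), and without endothelial replicate 1 it was -2.25 (limma adjusted p = 0.00116). The largest was that of Il33- WAT-MSC from epithelial cells (-4.18 ± 0.35, limma adjusted p = 1.24e-07). From endothelial cells without replicate 1, F11r differed by -3.81 in Il33- WAT-MSC and by -2.35 in lung Il33+ MSC.

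F11r was also the member that was called between the citrine-positive and citrine-negative cells of WAT. It was higher in Il33+ than in Il33- WAT-MSC by 1.56 ± 0.35 (limma adjusted p = 0.0478), with all Il33+ libraries above all Il33- libraries. This call was not stable. A fit of the 6 WAT-MSC libraries alone gave the same difference with an adjusted p of 0.108, the replicate block gave 0.0595, and 12 of 16 alternatives ended the call. Leaving out replicate 2 or 3 of the Il33+ population gave differences of 1.36 and 1.31 (limma adjusted p = 0.234 and 0.238), and leaving out any Il33- library also ended the call. The difference of Il33- WAT-MSC from lung Il33+ MSC (-1.46 ± 0.35, limma adjusted p = 0.0213) was likewise lost in 6 of 16 alternatives, namely under median-ratio scaling, without Il33- WAT-MSC replicate 1 or 3, and without any of the lung libraries. For F11r, the difference of Il33+ WAT-MSC from lung Il33+ MSC was 0.10, with a 95% interval of -0.66 to 0.85.

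Among the WAT-MSC libraries, the summed markers of another cell type moved with F11r. A mesothelial list, of which 10 of 11 genes were listed, summed to 42.8, 110 and 137 RPKM in Il33+ WAT-MSC replicates 1 to 3, in the same order as their F11r. In Il33- WAT-MSC it summed to 23.7, 38.3 and 23.1 RPKM, again with the highest sum in the library with the most F11r. Upk3b, which marks mesothelium, averaged 13.7 RPKM in the Il33+ libraries and 2.21 RPKM in the Il33- ones, and was listed at 0 in at least 1 Il33- library. Krt19 averaged 16.9 and 2.99 RPKM and Lrrn4 16.9 and 3.00 RPKM in the same populations, whereas Wt1 averaged 11.8 and 15.9 RPKM. The median difference of the 10 genes between Il33+ and Il33- WAT-MSC was 1.81. Of the 10, 1 was called (Gpm6a, 2.64, limma adjusted p = 0.0253), beside 1.13% of all genes. Lung Il33+ MSC had F11r at the level of Il33+ WAT-MSC with a mesothelial sum of only 8.85 to 19.0 RPKM. In endothelial cells, replicate 1 had the lowest mesothelial sum, 56.7 RPKM, and the highest F11r, while replicates 2 and 3 had sums of 203 and 236 RPKM. In epithelial cells Krt19, which is also an epithelial gene, made up most of the sum. The part of mesothelial RNA in the F11r level of WAT-MSC was not tested.

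**Figure D2:**
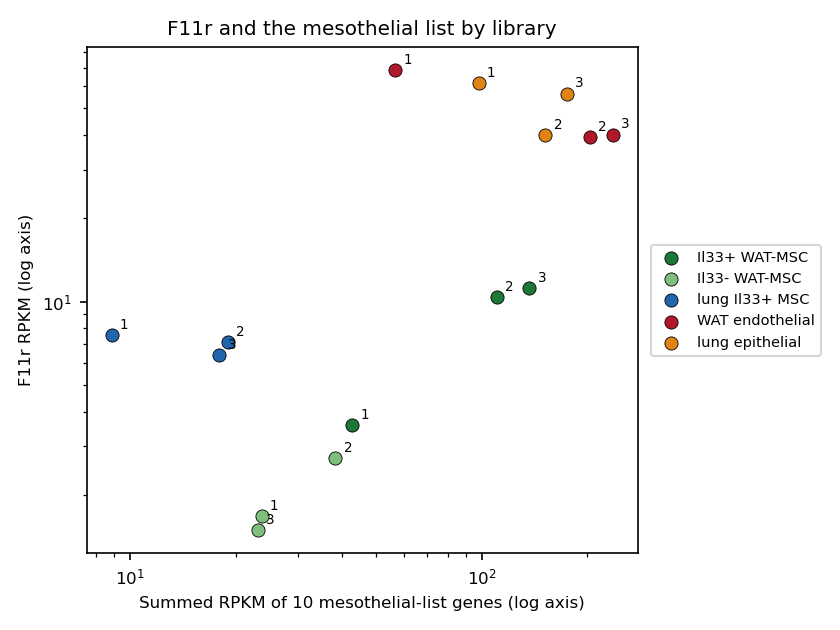
F11r level in RPKM (y axis, log scale) against the summed RPKM of 10 mesothelial-list genes (x axis, log scale) in the 15 libraries, with replicate numbers beside the points. Among the 6 WAT-MSC libraries, F11r lies between 1.49 and 11.2 RPKM and follows the mesothelial sum, whereas lung Il33+ MSC have 6.39 to 7.55 RPKM at the lowest sums.

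Jam2 was the main JAM transcript of stromal and endothelial cells. Endothelial cells had 90.3, 59.9 and 71.9 RPKM, a mean of 74.0 ± 15.3 RPKM (SD, n = 3). Il33- WAT-MSC had 45.4, 44.8 and 51.2 RPKM. Il33+ WAT-MSC had 24.4, 28.4 and 30.7 RPKM. Lung Il33+ MSC followed with 19.6, 15.1 and 18.9 RPKM, and epithelial cells had only 1.98, 2.52 and 2.94 RPKM. No 2 populations overlapped in Jam2, so the order of the means was also the order of all libraries.

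Of the 4 steps in this order, only that from lung Il33+ MSC to epithelial cells was called on its own (2.44 ± 0.21, limma adjusted p = 1.93e-07). The other steps ranged from 0.61 to 0.74: endothelial cells against Il33- WAT-MSC (limma adjusted p = 0.0828), Il33- against Il33+ WAT-MSC (limma adjusted p = 0.164) and Il33+ WAT-MSC against lung Il33+ MSC (limma adjusted p = 0.206). Wider steps were called. Jam2 was lower in Il33+ WAT-MSC than in endothelial cells by -1.37 ± 0.21 (limma adjusted p = 0.00066), and higher in Il33- WAT-MSC than in lung Il33+ MSC by 1.36 ± 0.21 (limma adjusted p = 0.000774). Without endothelial replicate 1 the former was -1.22 (limma adjusted p = 0.00244), and Jam2 differed from endothelial cells by -0.47 in Il33- WAT-MSC (limma adjusted p = 0.236) and by -1.83 in lung Il33+ MSC. The difference of endothelial from epithelial cells, 4.42 ± 0.21 (limma adjusted p = 3.61e-10), was the largest of all 60 member differences, and it was 4.27 (limma adjusted p = 1.92e-09) without that library. Array weights follow how closely each library fits its population mean. With them, the step between the 2 WAT-MSC populations (limma adjusted p = 0.0134) and that from Il33+ WAT-MSC to lung Il33+ MSC (limma adjusted p = 0.00984) were called as well. They also raised the number of all genes called in these comparisons, from 113 to 422 and from 331 to 867 of 9981.

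Jam3 was low in all populations that expressed it. It was at 2.54, 2.26 and 2.26 RPKM in Il33+ WAT-MSC. Il33- WAT-MSC had 2.70, 4.44 and 2.75 RPKM, lung Il33+ MSC had 2.48, 1.96 and 3.51 RPKM, and endothelial cells had 1.81, 2.94 and 4.93 RPKM. No difference among these 4 populations was called by limma, with adjusted p from 0.692 to 0.995, and their means lay between 2.35 and 3.30 RPKM. In epithelial cells, Jam3 was listed at 0 in replicate 1 and at 0.11 and 0.23 RPKM in the others. Each of the 4 other populations was called higher than epithelial cells, by 1.59 ± 0.32 in Il33+ WAT-MSC (limma adjusted p = 0.000813), 1.93 ± 0.32 in Il33- WAT-MSC (limma adjusted p = 0.000143), 1.70 ± 0.32 in lung Il33+ MSC (limma adjusted p = 0.000485) and 1.86 ± 0.32 in endothelial cells (limma adjusted p = 0.000221), or 2.12 (limma adjusted p = 5.36e-05) without endothelial replicate 1.

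The 3 JAM genes therefore made up different mixtures. In epithelial cells F11r accounted for 95.1 ± 1.58% of their summed RPKM and Jam2 for 4.66 ± 1.42% (SD, n = 3). In endothelial cells F11r accounted for 38.5 ± 4.21% and Jam2 for 58.7 ± 2.66% (SD, n = 3), and without replicate 1 these shares were 36.4 ± 2.97% and 60.03 ± 2.02% (SD, n = 2). Jam2 had a larger share in the stromal cells, at 64.7 ± 2.10% in lung Il33+ MSC, 72.9 ± 6.09% in Il33+ WAT-MSC and 89.9 ± 3.25% in Il33- WAT-MSC (SD, n = 3 each). The share of F11r was 25.8 ± 3.73% in lung Il33+ MSC, 20.8 ± 7.83% in Il33+ WAT-MSC and 3.76 ± 1.31% in Il33- WAT-MSC (SD, n = 3 each). Jam3 had its largest share in lung Il33+ MSC, 9.55 ± 2.28%, and its smallest in epithelial cells, 0.21 ± 0.20% (SD, n = 3 each). The summed level of the 3 genes had its highest mean in endothelial cells, at 127 RPKM (110 ± 10.4 RPKM, SD, n = 2, without replicate 1), and its lowest in lung Il33+ MSC, at 27.5 RPKM. These shares are RPKM of transcripts, compared per length, and carry no test.

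**Figure D3:**
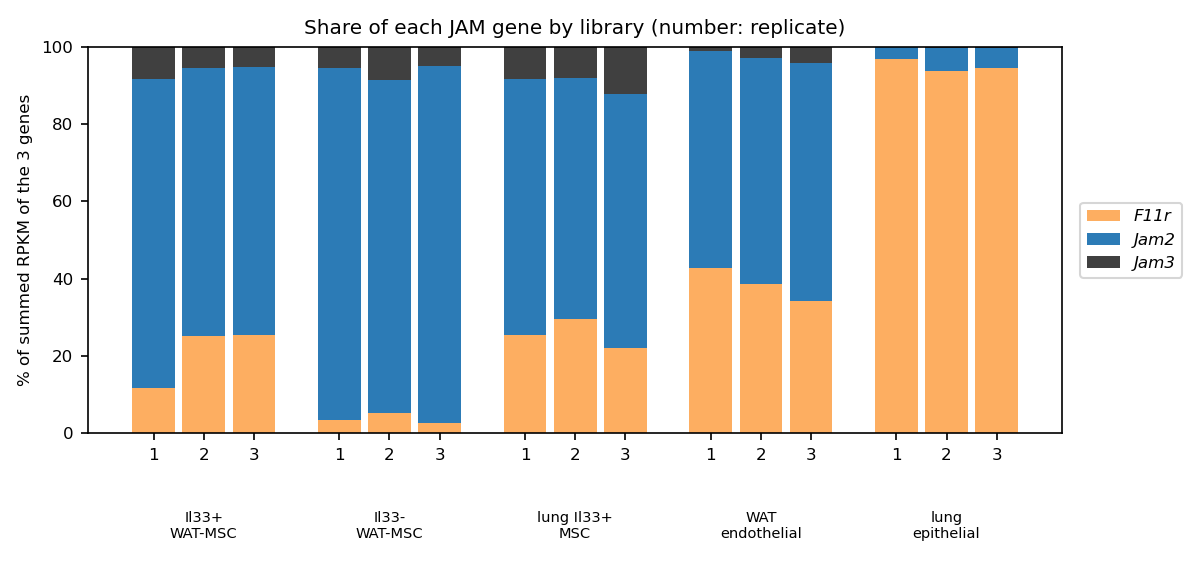
Share of F11r, Jam2 and Jam3 in the summed RPKM of the 3 genes (y axis, percent) in each of the 15 libraries (x axis, grouped by population, with replicate numbers). F11r is the largest part in all 3 epithelial libraries and Jam2 is the largest part in each of the other 12.

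Read by comparison, 1 member was called between Il33+ WAT-MSC and each other stromal population, and 3 or more in every other comparison. The share of all genes called was also lowest between Il33+ WAT-MSC and the other stromal populations. Between Il33+ and Il33- WAT-MSC, 1 of 6 members was called (F11r, higher in Il33+), where 1.13% of all genes were called. The 2 populations had separate ranges for 5 of 6 members, Icam1 being the exception, against 16.3% of all genes. Icam2 and F11r were higher in every Il33+ library, and Vcam1, Jam2 and Jam3 in every Il33- library. For Icam2 the difference was 0.83 ± 0.33 (limma adjusted p = 0.427) and for Jam3 it was -0.33 ± 0.32 (limma adjusted p = 0.913).

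In the comparison of Il33+ MSC from WAT and from lung, 1 of 6 members was called (Vcam1, higher in lung), beside 3.32% of all genes. When Il33- WAT-MSC were set against lung Il33+ MSC, 3 members were called, beside 5.63% of all genes. Against endothelial cells, 4 members were called lower in Il33+ WAT-MSC, 3 in Il33- WAT-MSC and 3 in lung Il33+ MSC, and none was called higher. The shares of all genes called in these 3 comparisons were 8.05%, 10.5% and 10.8%, and those called higher in endothelial cells were 4.89%, 6.02% and 5.53%. No member's call changed in any of the 4 endothelial comparisons without endothelial replicate 1.

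Against epithelial cells calls were common across the genome, so that the counts of members weigh less. Here 4 of 6 members were called in Il33+ WAT-MSC (36.8% of all genes), 5 of 6 in Il33- WAT-MSC (38.1%), 5 of 6 in lung Il33+ MSC (35.6%) and 5 of 6 in endothelial cells (36.4%). The median difference of the members from epithelial cells was 0.98, 1.28, 1.73 and 2.09 in this order, where the median of all genes was 0.17, 0.17, 0.13 and 0.11. The epithelial values share their libraries with the abundant Scgb1a1, and other scalings were therefore compared. Median-ratio scaling moved the median of all genes in these comparisons to between -0.13 and -0.06, and took the share of called genes that were lower in epithelial cells from between 55.8 and 57.0% to between 42.3 and 46.1%. Under quantile normalization the median stayed between 0.055 and 0.115 and the share between 52.6 and 53.2%, so the scalings differ in direction.

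**Figure D4:**
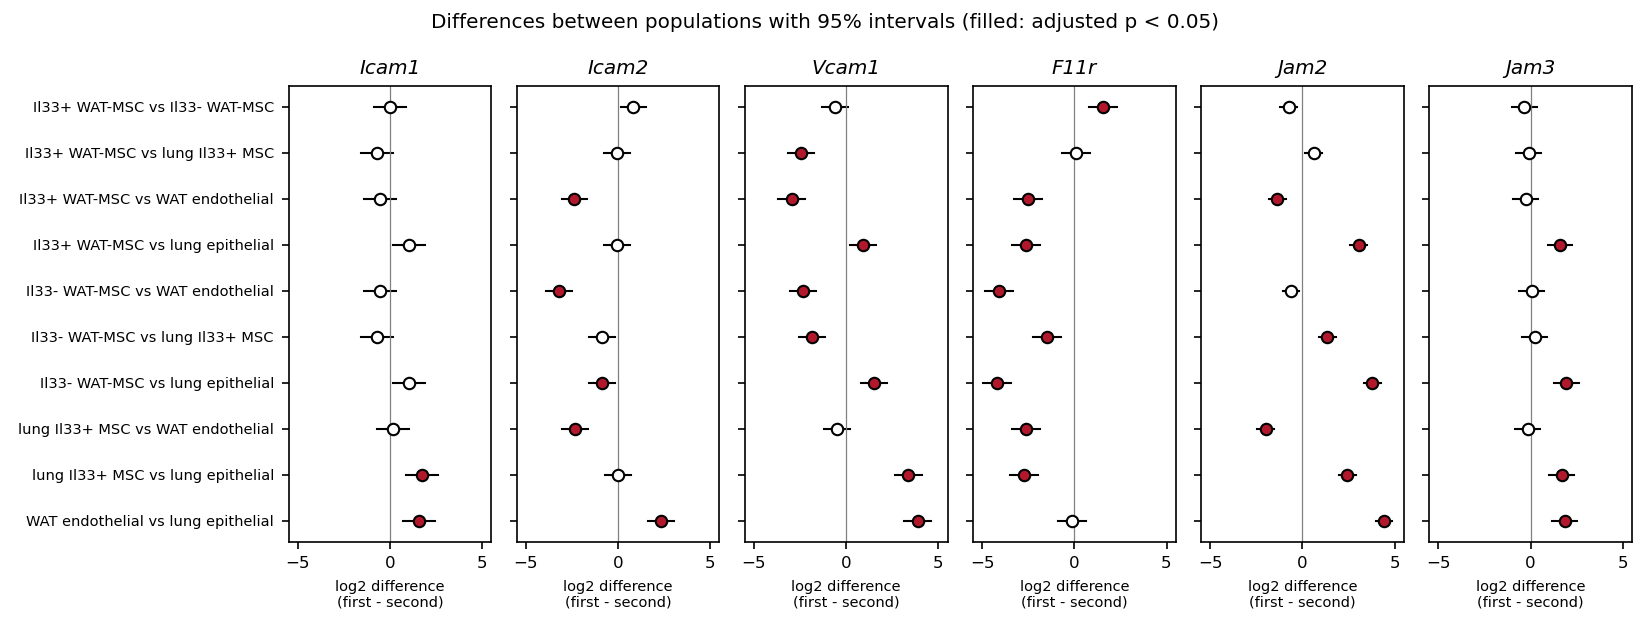
Difference in log2(RPKM + 1) between the first and second population (x axis) for each member in the 10 comparisons (y axis), with 95% intervals. Filled points passed limma's adjusted p of 0.05: 34 of the 60 points are filled, and Icam1 has 2 of them, both against epithelial cells.

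Lane 1 held 8 libraries and lane 2 held 7, with every population in both. The SLX prefix of the library names changed together with the lane, so that whatever it marks cannot be told apart from lane. Every replicate 1 was in lane 1 and every replicate 3 in lane 2. Replicate 2 was in lane 1 for the WAT populations and in lane 2 for the lung populations. Lane and the replicate block are therefore not separate checks. With lane as a covariate, 31 of the 34 calls were kept. Those lost were F11r between the 2 WAT-MSC populations (1.56, limma adjusted p = 0.0517), Vcam1 in Il33+ WAT-MSC against epithelial cells (0.88, limma adjusted p = 0.0595) and Icam2 in Il33- WAT-MSC against epithelial cells (-0.81, limma adjusted p = 0.068). Within lanes 1 and 2, the difference of F11r between Il33+ and Il33- WAT-MSC was 1.19 and 2.29. Vcam1 differed by -2.46 and -2.23 between the Il33+ MSC of WAT and of lung. For Icam1 against epithelial cells the within-lane values were 1.80 and 0.74 in Il33+ WAT-MSC, and 1.66 and 0.99 in Il33- WAT-MSC. Of the 34 calls, 29 were kept under every alternative setting, and those that were not have been named with their values (F11r in 2 comparisons, Vcam1 in 2 and Icam2 in 1).

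Genes around the members in the same pathways were counted whole. The integrin chains that bind the members have 11 genes, of which 7 were listed and 6 tested, and the remaining ones, among them Itgal, were not analysed here. None was called between Il33+ and Il33- WAT-MSC, where 1.13% of all genes were called. Compared with epithelial cells, 4 were higher and 2 lower in Il33+ WAT-MSC, where 36.8% of all genes were called. The lower ones were Itgb2 (-2.29, limma adjusted p = 0.00243) and Itga4 (-1.34, limma adjusted p = 0.00178), both leukocyte integrin chains. Itgb1, the β chain of VLA-4, averaged 51.4 ± 7.10 RPKM in Il33+ WAT-MSC, against 21.7 ± 2.55 RPKM for epithelial cells (SD, n = 3 each), a called difference of 1.21 (limma adjusted p = 0.00162). Itgav, the αv chain, was also higher in Il33+ WAT-MSC than in epithelial cells, by 1.38 (limma adjusted p = 0.00296), as were its partner Itgb3, by 1.45 (limma adjusted p = 0.0131), and Itga9, by 1.32 (limma adjusted p = 0.0133). Itgb2, the shared β chain of LFA-1 and Mac-1 and a leukocyte gene, averaged 0.12 ± 0.09 RPKM in Il33+ WAT-MSC, against 6.15 ± 0.52 RPKM for lung Il33+ MSC (SD, n = 3 each). That difference (-2.68, limma adjusted p = 0.00744) went with a leukocyte list (9 of 12 listed, Itgb2 included) that summed to 10.8 to 17.5 RPKM in Il33+ WAT-MSC and 161 to 191 RPKM in lung Il33+ MSC. An alveolar macrophage list (5 of 7 listed) was at 54.3 to 85.6 RPKM in lung Il33+ MSC and at most 4.34 RPKM in Il33+ WAT-MSC. Vcam1 was higher in the same lung libraries. Epithelial cells had a leukocyte sum of 730 to 1378 RPKM, an alveolar macrophage sum of 57.7 to 81.5 RPKM and Vcam1 of at most 7.68 RPKM. These epithelial values are lowered by the abundant Scgb1a1. The part of leukocytes in the Vcam1 level was not tested in either population.

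For other leukocyte adhesion and transmigration molecules, 24 of 34 genes were listed and 23 tested. Compared with endothelial cells, 9 were lower and 1 was higher in Il33+ WAT-MSC, 11 were lower and 2 higher in Il33- WAT-MSC, and 12 were lower and 2 higher in lung Il33+ MSC. Without endothelial replicate 1 the lower ones numbered 9, 11 and 12 and the higher ones 1 in each. Over all genes, 4.89%, 6.02% and 5.53% were called higher in endothelial cells in these comparisons. The median differences of the list were -0.57, -1.0 and -1.49. Pecam1, which encodes the CD31 used to sort the endothelial cells, averaged 163 ± 30.6 RPKM there, and Il33+ WAT-MSC had 2.34 ± 0.55 RPKM of it (SD, n = 3 each). Selp, the P-selectin on which leukocytes roll, averaged 99.98 ± 72.5 RPKM in endothelial cells, and Il33+ WAT-MSC had 1.61 ± 0.66 RPKM of it (SD, n = 3 each), with a difference of -5.09 (limma adjusted p = 2.54e-05). Aoc3, which encodes the adhesion protein VAP-1, had its highest mean in Il33- WAT-MSC, at 191 ± 52.2 RPKM, whereas Il33+ WAT-MSC had 86.4 ± 6.45 RPKM and lung Il33+ MSC had 16.4 ± 2.58 RPKM (SD, n = 3 each). It was called higher in Il33+ WAT-MSC than in lung Il33+ MSC by 2.33 (limma adjusted p = 0.000675), in the opposite direction to Vcam1. Alcam, a ligand of CD6, was at 63.3 ± 11.2 RPKM in epithelial cells and at most 3.66 RPKM in any other library.

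Of 18 junctional and cytoskeletal partners, 15 were listed and tested. Between Il33+ and Il33- WAT-MSC, 1 of the 15 was called, beside 1.13% of all genes. It was Cgnl1, which encodes paracingulin at cell junctions. Cgnl1 averaged 7.47 ± 1.37 RPKM in the Il33+ libraries and 1.34 ± 0.91 RPKM in the Il33- ones (SD, n = 3 each). The difference was 1.93 (limma adjusted p = 0.0161), in the same direction as F11r. Ezr, which encodes ezrin that links ICAM proteins to actin, was at 14.4 ± 3.72 and 4.53 ± 1.28 RPKM in the same populations (SD, n = 3 each; limma adjusted p = 0.477) and reached 107 ± 27.3 RPKM in epithelial cells (SD, n = 3). Ocln, the tight junction protein occludin, was at 6.49 ± 2.33 RPKM in epithelial cells (SD, n = 3), and Cgn, cingulin, at 5.31 ± 0.35 RPKM (SD, n = 3). In endothelial cells, where F11r was at a level close to that of epithelial cells, Ocln was at 0.62 ± 0.73 RPKM (SD, n = 3), and it was called lower than in epithelial cells (difference of endothelial from epithelial cells -2.26, limma adjusted p = 1.24e-05).

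Receptors whose signals are known to induce Icam1 or Vcam1 (13 of 14 listed, all 13 tested) were found throughout. None was called between the 2 WAT-MSC populations or between either of them and lung Il33+ MSC. Of all genes, 1.13% were called in the first of these comparisons. Against lung Il33+ MSC, 3.32% were called for Il33+ WAT-MSC and 5.63% for Il33- WAT-MSC. Against epithelial cells, 8 were called higher in Il33+ WAT-MSC, 7 in Il33- WAT-MSC, 7 in lung Il33+ MSC and 6 in endothelial cells, and 1 was called lower, in lung Il33+ MSC. The shares of all genes called in either direction against epithelial cells were 36.8%, 38.1%, 35.6% and 36.4% in this order. Il6st, the shared gp130 receptor chain, averaged 116 ± 18.2 RPKM in Il33+ WAT-MSC, against 29.3 ± 6.85 RPKM for epithelial cells (SD, n = 3 each). Its partner Osmr, the oncostatin M receptor, was at 38.4 ± 10.4 and 8.61 ± 2.64 RPKM in these populations (SD, n = 3 each). Il1r1, the IL-1 receptor, averaged 57.9 ± 5.33 RPKM in lung Il33+ MSC, against 30.8 ± 3.64 RPKM for Il33+ WAT-MSC (SD, n = 3 each; limma adjusted p = 0.138). Il17ra, the IL-17 receptor, averaged 49.4 ± 10.8 RPKM in lung Il33+ MSC, against 14.4 ± 8.68 RPKM for endothelial cells (SD, n = 3 each), a called difference of 1.93 (limma adjusted p = 0.0221).

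**Figure D5:**
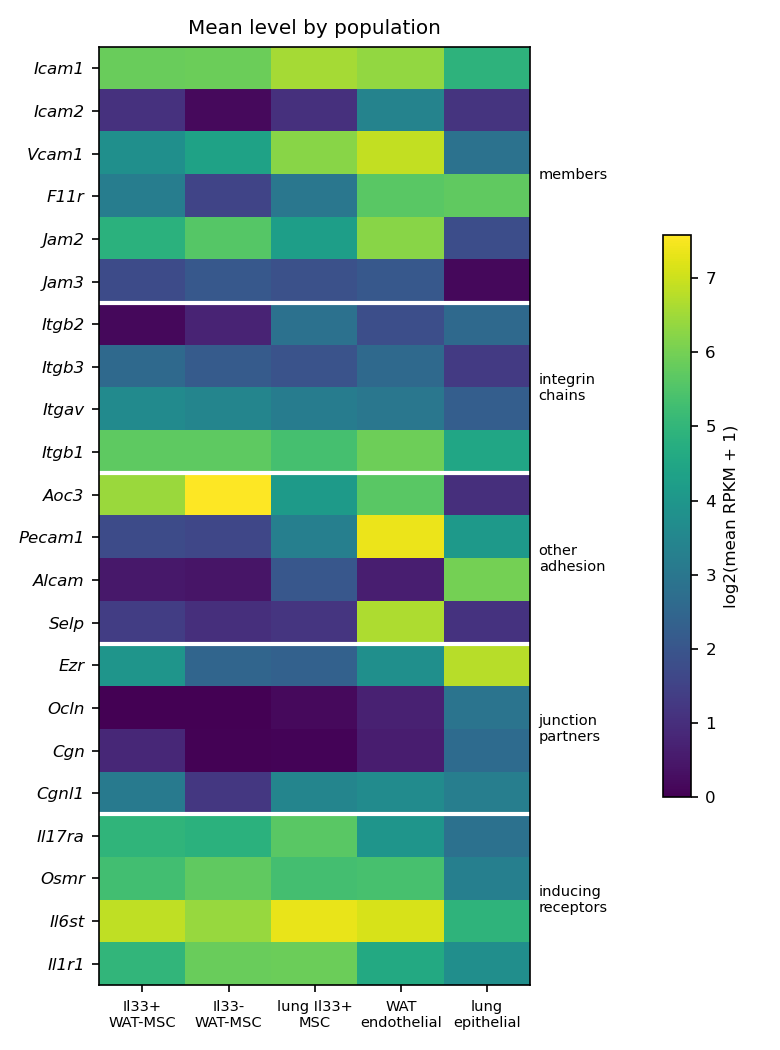
Mean level of the members and of 4 genes from each of the 4 lists (rows) in the 5 populations (columns), coloured by log2(mean RPKM + 1). Jam2 and Vcam1 are highest in the endothelial column together with Pecam1 and Selp, and F11r is high in the endothelial and epithelial columns while Ocln and Cgn have their highest means in the epithelial one.

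For each member, the genes with the most similar pattern over the 15 libraries were taken by the root mean square difference of log2(RPKM + 1) after centring each gene. The likeness is a description with no test. Jam3 had the closest neighbours: Tcf4 lay at 0.23, Sidt2 at 0.24 and Ppp1r2 at 0.29, against a spread of Jam3 around its own mean of 0.76. For Icam1, whose own spread was also 0.76, they were Bcl10 at 0.30, Sdf4 at 0.31 and Ndst1 at 0.32. Jam2, with a spread of 1.53, was followed by Atp1b2 at 0.47, Atp2b4 at 0.54 and Ehd2 at 0.55. Icam2, with a spread of 1.11, had Clu at 0.38, Exoc6 at 0.42 and She at 0.42. The nearest genes to F11r, with a spread of 1.67, were Rassf9 at 0.62, Rassf3 at 0.62 and Serpinb6b at 0.65. Vcam1, with a spread of 1.51, had the most distant neighbours, with Stc1 at 0.74, Sbno2 at 0.77 and Fgd5 at 0.78. Stc1, for example, had a mean of 11.03 RPKM in lung Il33+ MSC, of 10.2 RPKM in endothelial cells and of at most 0.83 RPKM in each other population.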

How the data were processed

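Cells of 5 populations were sorted and RNA was amplified (Ovation RNA-seq V2) and sequenced. Per the labels' processing notes, the authors aligned reads with TopHat2 to mm10 in Partek. The values as deposited by the authors are RPKM per transcript; the counting settings and any filter before deposit are not given in the sources used here, and no counts were used, so intervals reflect the spread between replicates. A single abundant transcript lowers all other RPKM of its library. RPKM were summed per gene symbol, genes under 1 RPKM in more than 12 libraries were left out, and log2(RPKM + 1) was fitted in R 4.3.3 with limma 3.58.1 (population means, contrasts, eBayes with trend), checked on simulated data. The members, gene lists and alternatives were chosen with earlier results of these data known. From each of the 4 pathway lists, the 4 tested genes with the widest range of population means were named, and for each member the 3 nearest genes; marker genes and the other listed genes that are named were chosen after their values were seen. Positions and promoters are from RefSeq on GRCm38.p6; promoter windows were matched for Icam1 and F11r, 2 of 6 members. Figures were drawn with matplotlib 3.10.9.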

Additional observations from a re-analysis of the deposited data

How the results depend on the processing

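Of the 34 called member differences, 29 were kept under every alternative tried. Between Il33+ and Il33- WAT-MSC the count of 1 called member (F11r) fell to 0 with the replicate block, lane as a covariate, median-ratio scaling, quantile normalization, no filter, the most abundant transcript or the 6 libraries compared alone, became 2 with array weights, and ranged from 0 to 1 when 1 library was left out. Array weights also took the count between the Il33+ MSC of WAT and of lung from 1 to 2. Over all genes, array weights raised the calls in these 2 comparisons from 113 to 422 and from 331 to 867 of 9981. In the settings with all libraries that took the WAT-MSC count to 0, between 97 and 147 genes were called. Deviations of same-numbered libraries correlated at means of -0.03 to 0.11, and in 0 of 10 pairs of populations was every correlation over 0.1. With 3 libraries per population, these values cannot decide whether same-numbered libraries share an animal or a sort. The block ended F11r between the WAT-MSC populations (limma adjusted p = 0.0595) and made Icam1 called in both WAT-MSC populations against epithelial cells (limma adjusted p = 0.0313 and 0.0317). Cause was not tested in any of these.

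Sign changes were limited to differences that were not called. Icam1 between Il33+ and Il33- WAT-MSC became -0.0062 under median-ratio scaling, -0.11 under quantile normalization and -0.13 with array weights, and ranged from -0.36 to 0.25 when 1 library was left out. Icam2 became 0.028 with lane and 0.050 with quantile normalization in Il33+ WAT-MSC against lung Il33+ MSC (-0.32 to 0.13 leaving out 1 library), 0.019 and 0.038 against epithelial cells (-0.36 to 0.18), and 0.11 with a pseudocount of 0.1 in lung Il33+ MSC against epithelial cells (-0.32 to 0.22). Jam3 in Il33- WAT-MSC against endothelial cells became -0.046 under median-ratio scaling and -0.024 under quantile normalization (-0.19 to 0.34 leaving out 1 library). Icam1 in lung Il33+ MSC against endothelial cells became -0.066 under quantile normalization (-0.036 to 0.41). Leaving out 1 library also turned F11r in Il33+ WAT-MSC against lung Il33+ MSC (-0.15 to 0.55) and in endothelial against epithelial cells (-0.37 to 0.021), and Jam3 against lung Il33+ MSC (-0.24 to 0.062) and endothelial cells (-0.53 to 0.010) in Il33+ WAT-MSC and between lung Il33+ MSC and endothelial cells (-0.43 to 0.11). Where a stricter filter, or the filter on 6 libraries, removed Icam2 or Jam3, there was no value. With 3 libraries per population, simulated log2 changes of 1 were recovered for 28% of genes between the WAT-MSC populations. Those of 2 were recovered for 78% and those of -2 for 68%, so smaller differences are at the limit of these data. The 200 changed genes of the simulation were drawn only from genes of a middle mean level. Recovery of low transcripts, such as Icam2 and Jam3, was therefore not tested.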
